A study of Mus musculus with 4 samples.

Results

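Clade B serpins are protease inhibitors that lack a classical signal peptide and stay mostly inside the cell. The 9 of them described here, *Serpinb1a*, *Serpinb2*, *Serpinb3a*, *Serpinb3b*, *Serpinb3c*, *Serpinb3d*, *Serpinb5*, *Serpinb6c* and *Serpinb12*, were taken by gene symbol, and all 9 were found among the 24346 symbols of the expression files. RNA sequencing was done on dorsal skin of male C57BL/6 mice that were 8 weeks old when the diet began, received it for 3 weeks and were then treated with imiquimod (IMQ) cream, a Toll-like receptor 7 agonist that induces psoriasis-like dermatitis, for 1 day. The Cont-IMQ group (2 libraries) received the NASH diet, a diet rich in fat, cholesterol and sucrose with bile salt that induces steatohepatitis, and the 7KC-IMQ group (2 libraries) received the same diet with 7-ketocholesterol (7KC), an oxidized form of cholesterol. Both groups therefore share the NASH diet and IMQ, and neither vehicle-treated skin nor skin of mice on a normal diet was compared. The labels do not say whether a library came from 1 mouse or from several, so the spread within a group may be in part technical.

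A serpin presents a flexible reactive center loop as bait, and the protease that cuts the loop is trapped in a covalent complex. Stratified squamous epithelia express many clade B serpins. *Serpinb3a* to *Serpinb3d* are the mouse counterparts of the human squamous cell carcinoma antigens SERPINB3 and SERPINB4, which inhibit cysteine and serine proteases and are known to be abundant in psoriatic epidermis. *Serpinb2* encodes plasminogen activator inhibitor 2, an inhibitor of urokinase, *Serpinb1a* an inhibitor of the neutrophil proteases elastase, cathepsin G and proteinase 3, and *Serpinb12* an inhibitor of trypsin-like proteases. *Serpinb5* encodes maspin, a serpin of epithelial cells that does not act as a classical protease inhibitor. *Serpinb6c* is one of several mouse relatives of *Serpinb6a*, and it is the member about which least is known.

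Pairs of values give replicate 1 first. Values are FPKM, the fragments per kilobase of exon per number of mapped fragments in a library, as the authors calculated them. From the steps between low values, 14960000 to 16220000 mapped reads were estimated to lie behind each library. As a check of the tissue, the basal keratinocyte markers *Krt5*, *Krt14*, *Krt15*, *Trp63*, *Col17a1* and *Itgb4* summed to between 7202 and 8828 FPKM, and 7 suprabasal markers (*Krt1*, *Krt10*, *Krtdap*, *Ivl*, *Lor*, *Dsg1a* and *Dsc1*) to between 15397 and 23645 FPKM. One library stood apart in another compartment. Markers of growing hair follicles summed to 1380 FPKM in Cont-IMQ replicate 2, against 107 FPKM in Cont-IMQ replicate 1 and 404 and 355 FPKM in the 7KC-IMQ libraries. None of the 8 hair follicle markers was separated between the groups. Without overlap, 1 of 5 fibroblast markers was higher and 1 lower, and 2 of 5 skeletal muscle markers were higher and 2 lower. Likewise, 2 of 5 adipocyte markers were higher, and 1 of 3 red blood cell markers was lower. The latter, *Hbb-bs*, had 8.32 and 0.00438 FPKM under Cont-IMQ and 0.00392 and 0.00430 FPKM under 7KC-IMQ. Only Cont-IMQ replicate 1 stood apart for this gene. In bulk tissue, fewer cells of a type and less RNA per cell cannot be told apart.

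The members lie in a pair of gene clusters. On chromosome 1 of GRCm38 (the assembly also called mm10), *Serpinb5* (106861173 to 106883348), *Serpinb12* (106934449 to 106957080), *Serpinb3a* (107045587 to 107052303), *Serpinb3d* (107078167 to 107083506), *Serpinb3b* (107153940 to 107278361), *Serpinb3c* (107271201 to 107278371) and *Serpinb2* (107511423 to 107535478) follow each other. On chromosome 13, *Serpinb1a* (32842092 to 32851185) comes before *Serpinb6c* (33879816 to 33905708). *Serpinb5*, *Serpinb12* and *Serpinb2* are on the plus strand and the others on the minus strand. In the GENCODE annotation, the longer model of *Serpinb3b* runs across *Serpinb3c*. The coding sequences of *Serpinb3a* to *Serpinb3d* were 86.3% to 93.1% identical in their 6 pairs, whereas the other 30 pairs of members were 50.3% to 57.8% identical.

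The last 180 coding bases of the 4 Serpinb3 paralogues, which lie within the last coding exon and encode the reactive center loop, are shown because they are the stretch by which the proteins differ in their bait. Sequences are written 5′ to 3′ from GENCODE transcripts on GRCm38, and capitals mark bases that differ from *Serpinb3a* when the whole coding sequences are aligned. *Serpinb3c* is 1 codon shorter (1161 against 1164 coding bases) and lacks 3 bases of this stretch, so 177 are shown.
*Serpinb3a* (chr1:107046016-107046195, minus strand): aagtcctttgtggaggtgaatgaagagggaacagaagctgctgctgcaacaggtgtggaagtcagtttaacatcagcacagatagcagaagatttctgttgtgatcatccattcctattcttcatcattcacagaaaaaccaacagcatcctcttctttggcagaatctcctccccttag
*Serpinb3b* (chr1:107154369-107154548, minus strand): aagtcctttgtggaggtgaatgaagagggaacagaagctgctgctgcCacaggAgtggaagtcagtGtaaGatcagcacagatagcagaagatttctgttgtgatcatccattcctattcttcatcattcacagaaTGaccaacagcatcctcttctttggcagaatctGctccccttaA
*Serpinb3c* (chr1:107271629-107271805, minus strand): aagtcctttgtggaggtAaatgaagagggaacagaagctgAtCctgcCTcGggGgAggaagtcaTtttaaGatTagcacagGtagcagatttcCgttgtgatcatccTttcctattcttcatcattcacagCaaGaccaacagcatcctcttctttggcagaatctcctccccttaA
*Serpinb3d* (chr1:107078193-107078372, minus strand): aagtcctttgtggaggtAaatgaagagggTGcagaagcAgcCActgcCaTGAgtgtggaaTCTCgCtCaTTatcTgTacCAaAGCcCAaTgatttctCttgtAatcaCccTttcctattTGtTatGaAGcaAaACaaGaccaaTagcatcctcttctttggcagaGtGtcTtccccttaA
In this stretch, *Serpinb3b* was 95.6% identical to *Serpinb3a*, more than in the rest of the coding sequence (92.4%). *Serpinb3d* was 73.9% identical to *Serpinb3a* here, against 92.0% before it. The stretch of *Serpinb3c* was 88.9% identical to that of *Serpinb3a* when the 3 missing bases count as differences, with 91.7% before it. The capitals of *Serpinb3d* fall mostly in the middle of the stretch, between a well conserved opening and a conserved end.

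The similarity of the paralogues also bears on the counting of reads. The library reads were 75 bases long, and 8.09% of the 75-base windows of *Serpinb3a* transcripts also occur in another annotated gene, nearly all of them in *Gm8080*. The corresponding share was 2.28% for *Serpinb3b*, 2.59% for *Serpinb3c* and 0.876% for *Serpinb3d*. *Serpinb2* shared 9.0% of its windows, all with its overlapping neighbor *Serpinb10*. The share was 0.311% for *Serpinb1a* and 0.38% for *Serpinb6c*, and no window of *Serpinb5* or *Serpinb12* was shared. How reads that fit several genes were divided is not given in the sources used here.

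The levels of the members ranged from 309 FPKM (*Serpinb5*) down to 0.408 FPKM (*Serpinb3d*) in Cont-IMQ replicate 1. Maspin (*Serpinb5*) and *Serpinb2* led in every library, followed by *Serpinb3b* and then *Serpinb3a*. In the Cont-IMQ group, *Serpinb5* had 292 ± 23.5 FPKM (SD, n = 2), *Serpinb2* had 231 ± 82.6 FPKM, *Serpinb3b* had 53.1 ± 15.4 FPKM and *Serpinb3a* had 31.3 ± 15.1 FPKM. *Serpinb12*, *Serpinb6c* and *Serpinb1a* followed at 24.1 ± 16.0, 15.7 ± 1.41 and 15.1 ± 0.107 FPKM, and *Serpinb3d* and *Serpinb3c* closed the order below 1 FPKM. The ranges of *Serpinb5* and *Serpinb2* overlapped in both groups, so their order is not settled. In the Cont-IMQ group, *Serpinb12* overlapped *Serpinb3a*, *Serpinb6c* and *Serpinb1a*, and *Serpinb6c* overlapped *Serpinb1a*, whereas *Serpinb3a* was separated from both *Serpinb6c* and *Serpinb1a*. *Serpinb5* exceeded *Serpinb2* in replicate 1 of both groups, and *Serpinb2* exceeded *Serpinb5* in replicate 2 of both groups. *Serpinb5* made up 47.1% and 41.1% of the summed FPKM of the 9 members under Cont-IMQ and 39.2% and 31.5% under 7KC-IMQ, while *Serpinb3a* and *Serpinb3b* together made up 16.2% and 9.37% under Cont-IMQ and 20.9% and 23.8% under 7KC-IMQ. In the 7KC-IMQ group, *Serpinb3a* was likewise separated from *Serpinb6c*, and its range overlapped that of *Serpinb3b*. Under Cont-IMQ the separation of *Serpinb3a* from *Serpinb3b* was narrow, with a highest *Serpinb3a* value of 42.0 FPKM and a lowest *Serpinb3b* value of 42.2 FPKM. Within every library, *Serpinb3b* exceeded *Serpinb3a*. *Serpinb12* moved from the fifth place to the seventh, with ranges that overlapped those of *Serpinb1a*.

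**Figure D1:**
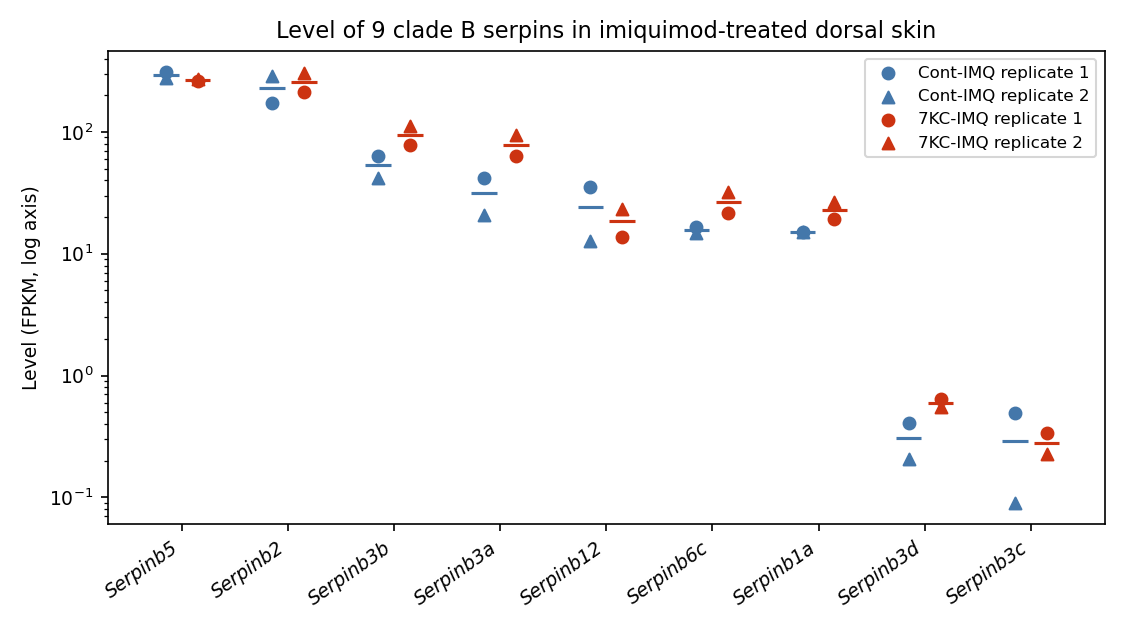
Level of each of the 9 serpins in FPKM (log axis) in the 4 libraries, with the Cont-IMQ group in blue, the 7KC-IMQ group in red and a bar at each group mean. *Serpinb3a*, *Serpinb3b*, *Serpinb6c*, *Serpinb1a* and *Serpinb3d* have both red points above both blue points, and *Serpinb5* has both below.

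The question of the comparison is whether 7KC in the diet changes gene expression in IMQ-treated skin. Of the 9 members, 5 had their lowest 7KC-IMQ value above their highest Cont-IMQ value, namely *Serpinb3a*, *Serpinb3b*, *Serpinb6c*, *Serpinb1a* and *Serpinb3d*. Over all 15896 genes tested, 23.9% were higher and 22.9% lower without overlap in the same way. One member, *Serpinb5*, was lower without overlap, and *Serpinb2*, *Serpinb3c* and *Serpinb12* overlapped. The median difference of the members in mean log2(FPKM + 1) was 0.29, against -0.0056 over all genes tested. This median is the value of *Serpinb3d*, a gene of few reads, and it moved to 0.46 without Cont-IMQ replicate 1, 0.54 without Cont-IMQ replicate 2, 0.44 without 7KC-IMQ replicate 1, 0.58 with a pseudocount of 0.1, and 0.55 over the 7 members with a mean of at least 1 FPKM. None of the members passed an adjusted p-value of 0.05 in limma (lowest adjusted p = 0.356), where 1 gene of all tested did (0.00629%). At an unadjusted p-value under 0.05, 4 members were higher and none lower, while 7.5% of all genes tested were higher and 5.47% lower by this rule. For a single value, the smallest p that a two-sided exact permutation test allows here is 0.333. Fold changes are ratios of mean FPKM, and differences on the scale of log2(FPKM + 1) understate the change of genes with low values.

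The mean profile of the 9 members was lowest in Cont-IMQ replicate 2 (-0.379 on the centered log2 scale) and highest in 7KC-IMQ replicate 2 (0.376), with Cont-IMQ replicate 1 (-0.016) and 7KC-IMQ replicate 1 (0.019) close together between them. The total FPKM over all genes took the same order, from 630272 in Cont-IMQ replicate 2 over 651015 in Cont-IMQ replicate 1 and 654666 in 7KC-IMQ replicate 1 to 702218 in 7KC-IMQ replicate 2. After quantile normalization, which makes the distributions of the libraries equal, 5 members were again higher without overlap, and the median difference was 0.31. The share over all genes after this normalization is not given here. The part of the total FPKM in the profile of the members was not tested.

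The largest difference of the 9 was that of *Serpinb3a*, one of the squamous cell carcinoma antigen genes. *Serpinb3a* had 42.0 and 20.7 FPKM under Cont-IMQ (replicates 1 and 2), against 62.9 and 94.1 FPKM under 7KC-IMQ, from an estimated 906, 444, 1450 and 2001 reads. The groups did not overlap, and the replicates within each group lay at least as far apart as the nearest libraries of different groups. Its mean was 2.5-fold higher in the 7KC-IMQ group, with a difference of 1.35 in mean log2(FPKM + 1) (standard error 0.383, 95% interval 0.343 to 2.36, adjusted p = 0.356 in limma). That difference was 0.86 without Cont-IMQ replicate 2, the library with the high hair follicle markers, and 1.85 without Cont-IMQ replicate 1.

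*Serpinb3b* had 63.9 and 42.2 FPKM under Cont-IMQ (replicates 1 and 2), against 77.6 and 112 FPKM under 7KC-IMQ. The libraries took the same order as for *Serpinb3a*, lowest in Cont-IMQ replicate 2 and highest in 7KC-IMQ replicate 2. The mean was 1.78-fold higher in the 7KC-IMQ group, and the difference on the log2 scale was 0.83 (standard error 0.267, adjusted p = 0.365 in limma), or 0.54 without Cont-IMQ replicate 2.

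*Serpinb3a* made up 39.7% and 32.9% of the summed FPKM of *Serpinb3a* and *Serpinb3b* in the Cont-IMQ libraries, and 44.8% and 45.7% in the 7KC-IMQ libraries. The share was higher in both 7KC-IMQ libraries without overlap (two-sided exact permutation test, p = 0.333, the smallest that 2 against 2 allows). Summed over the 4 paralogues, the level was 107 and 63.2 FPKM under Cont-IMQ and 141 and 207 FPKM under 7KC-IMQ. Summing leaves out how reads were divided among the 4. It does not cover reads shared with *Gm8080*, which is not in the sum and shares 125 of the 126 shared windows of *Serpinb3a*. The sum was 2.05-fold higher, a difference of 1.05 in mean log2(FPKM + 1) (two-sided exact permutation test, p = 0.333). It stayed higher with each library left out in turn, by 0.67 to 1.42.

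**Figure D2:**
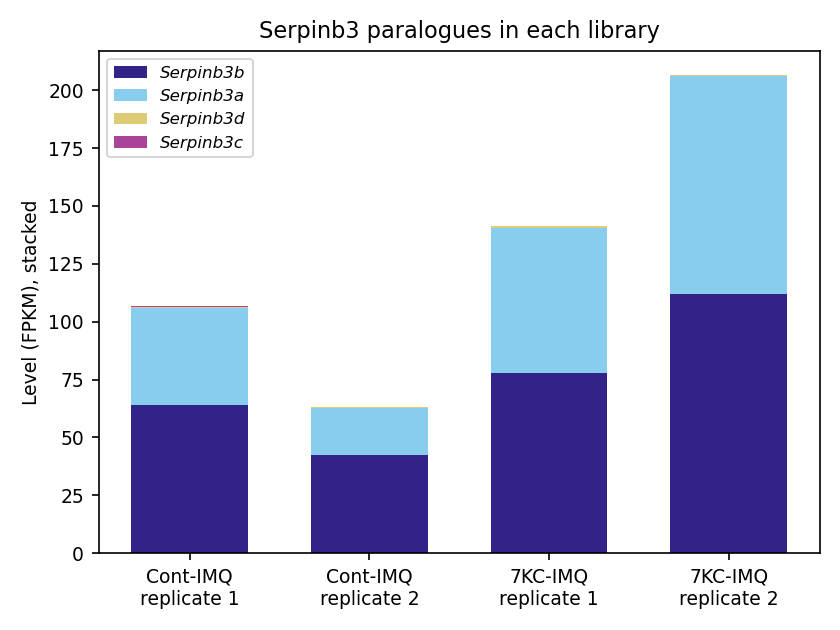
FPKM of the 4 Serpinb3 paralogues stacked in each library, 1 bar per library, with *Serpinb3b* at the base. The bars reach 107 and 63.2 FPKM under Cont-IMQ and 141 and 207 FPKM under 7KC-IMQ, and *Serpinb3c* and *Serpinb3d* are barely visible on this scale.

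*Serpinb3c* and *Serpinb3d* were near the limit of detection. *Serpinb3d* had 0.408 and 0.206 FPKM under Cont-IMQ and 0.636 and 0.552 FPKM under 7KC-IMQ, which correspond to an estimated 6, 3, 10 and 8 reads. It was higher without overlap, but from a total of 9 reads against 18 the ratio was 1.94 with an exact 95% counting interval of 0.829 to 4.91, so a difference was not detectable at this depth. *Serpinb3c* had 0.492 and 0.0904 FPKM under Cont-IMQ and 0.334 and 0.227 FPKM under 7KC-IMQ, from an estimated 11, 2, 8 and 5 reads. Its libraries overlapped, and the ratio of the totals was 0.971 (exact 95% interval 0.415 to 2.27). These intervals cover counting error only.

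*Serpinb3c* was thus low in all 4 libraries while *Serpinb3b* was 130 to 493 times as high per length in the same library, where the higher ratios rest on 5 reads of *Serpinb3c* or fewer. Their promoters are shown because both genes, and *Serpinb3a*, have nearly the same sequence before their RefSeq starts. The longer GENCODE model of *Serpinb3b* begins at 107278361, beside the start of *Serpinb3c* at 107278371. For *Serpinb3b*, only the stretch before its RefSeq start is shown. The stretch covers the 200 bases before the RefSeq start of *Serpinb3c* (GRCm38.p6) and the bases of *Serpinb3a* and *Serpinb3b* that align with them. These aligned bases end 34 bases before the start of *Serpinb3a* and 10 bases before that of *Serpinb3b*. Capitals mark bases that differ from *Serpinb3c*.
*Serpinb3a* (chr1:107052338-107052537, minus strand): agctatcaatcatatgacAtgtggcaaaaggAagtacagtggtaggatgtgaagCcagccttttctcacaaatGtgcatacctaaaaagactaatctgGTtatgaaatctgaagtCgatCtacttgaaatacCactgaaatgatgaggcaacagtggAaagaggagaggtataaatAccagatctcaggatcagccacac
*Serpinb3b* (chr1:107161125-107161324, minus strand): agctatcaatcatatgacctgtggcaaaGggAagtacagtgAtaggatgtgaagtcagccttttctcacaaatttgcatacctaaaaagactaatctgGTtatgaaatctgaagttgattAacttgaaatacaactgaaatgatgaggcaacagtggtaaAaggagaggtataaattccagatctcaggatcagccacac
*Serpinb3c* (chr1:107278372-107278571, minus strand): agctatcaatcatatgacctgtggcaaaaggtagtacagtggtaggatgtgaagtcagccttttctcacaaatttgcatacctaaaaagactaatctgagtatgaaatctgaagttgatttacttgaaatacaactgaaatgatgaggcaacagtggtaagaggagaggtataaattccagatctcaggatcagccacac
Over these 200 bases, *Serpinb3b* was 96.5% identical and *Serpinb3a* 94.5% identical to *Serpinb3c*, and all 3 stretches hold the letters TATAAAT near their end. For *Serpinb3d*, the other low paralogue, no best-aligning stretch was searched for. The 200 bases before its own RefSeq start were 48.4% identical to the *Serpinb3c* stretch when aligned end to end. This value cannot be set beside those of *Serpinb3a* and *Serpinb3b*. RefSeq promoters of 300 bases (250 before and 50 after the start) were found for 8 of the 9 members, in 10 entries. The letters TGANTCA, an AP-1 motif read on both strands, were in 4 of the 10 entries (both entries of *Serpinb2*, *Serpinb5* and 1 entry of *Serpinb12*) and in 7.81% of the 32851 promoters of the table. The letters TTCNNNGAA, a STAT motif, were in both entries of *Serpinb2*, which overlap each other, and in 8.3% of all promoters. Neither motif was found in the entries of *Serpinb3a*, *Serpinb3b*, *Serpinb3c*, *Serpinb3d* or *Serpinb6c*. A match describes the letters of this window and not the binding of a factor.

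The pair on chromosome 13 was higher as well. *Serpinb6c* had 16.7 and 14.7 FPKM under Cont-IMQ (replicates 1 and 2), against 21.4 and 32.1 FPKM under 7KC-IMQ. The Cont-IMQ libraries lay close together, while the 7KC-IMQ libraries lay farther apart than the nearest libraries of different groups, and 7KC-IMQ replicate 2 was the highest. The mean was 1.7-fold higher, with a difference of 0.71 on the log2 scale (standard error 0.206, adjusted p = 0.356 in limma), or 0.43 without 7KC-IMQ replicate 2. Its neighbor and relative *Serpinb6a*, an inhibitor expressed in many tissues, was far more abundant and went the other way, with 277 and 272 FPKM under Cont-IMQ and 227 and 262 FPKM under 7KC-IMQ. *Serpinb6c* therefore made up 5.69% and 5.14% of the sum of both genes in the Cont-IMQ group, and 8.63% and 10.9% in the 7KC-IMQ group.

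*Serpinb1a*, the inhibitor of neutrophil proteases, had 15.2 and 15.0 FPKM under Cont-IMQ (replicates 1 and 2), against 19.1 and 26.7 FPKM under 7KC-IMQ. The Cont-IMQ replicates were nearly equal, while the 7KC-IMQ replicates lay farther apart than the nearest libraries of different groups, and 7KC-IMQ replicate 2 was again the highest. The mean was 1.52-fold higher, with a difference of 0.55 on the log2 scale (standard error 0.169, adjusted p = 0.36 in limma), or 0.32 without 7KC-IMQ replicate 2. Neutrophils also express this inhibitor, and of 8 neutrophil markers tested, 5 were higher and 1 lower without overlap. The 10 neutrophil markers with a row in the files, of 11 listed, summed to 33.7 and 44.6 FPKM under Cont-IMQ and 43.8 and 46.0 FPKM under 7KC-IMQ. *Cxcr2*, a chemokine receptor of neutrophils, had 13.4 and 15.0 FPKM against 20.2 and 23.0 FPKM. *Fpr1*, the marker that was lower, had 14.8 and 22.5 FPKM against 14.4 and 13.8 FPKM. The granule genes *Camp*, *Ngp*, *Ltf*, *Mpo* and *Elane* stayed below 1 FPKM in every library. The part of neutrophils in the difference of *Serpinb1a* was not tested.

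*Serpinb5* was the only member lower without overlap, and by little. It had 309 and 276 FPKM under Cont-IMQ and 263 and 272 FPKM under 7KC-IMQ. The groups did not overlap, but the gap between the nearest libraries of the groups was smaller than the spread within either group. The difference on the log2 scale was -0.12 (95% interval -0.366 to 0.117, adjusted p = 0.609 in limma), and it stayed below 0 with each library left out, between -0.21 and -0.04.

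*Serpinb2* had 173 and 290 FPKM under Cont-IMQ (replicates 1 and 2), against 212 and 305 FPKM under 7KC-IMQ. The replicates differed more from each other than the groups did. The difference was 0.18 (95% interval -0.627 to 0.99, adjusted p = 0.831 in limma), and it turned to -0.19 without Cont-IMQ replicate 1 and to -0.08 without 7KC-IMQ replicate 2. The urokinase receptor *Plaur*, of the system that *Serpinb2* acts on, had 10.6 and 9.17 FPKM under Cont-IMQ and 19.4 and 16.9 FPKM under 7KC-IMQ, whereas urokinase itself (*Plau*) overlapped, at 16.2 and 9.78 against 13.6 and 11.4 FPKM.

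*Serpinb12* varied widely between replicates, at 35.4 and 12.7 FPKM under Cont-IMQ and 13.7 and 23.2 FPKM under 7KC-IMQ. Cont-IMQ replicate 1 was the highest and Cont-IMQ replicate 2 the lowest, so the Cont-IMQ libraries enclosed those of the 7KC-IMQ group. The difference was -0.24 (95% interval -1.63 to 1.14, adjusted p = 0.876 in limma), and its sign depended on the library left out, with 0.46 without Cont-IMQ replicate 1 and 0.12 without 7KC-IMQ replicate 1. The summed suprabasal keratinocyte markers took the same order of libraries as *Serpinb12*, with 23645 and 15397 FPKM under Cont-IMQ and 17021 and 18710.3 FPKM under 7KC-IMQ, and their part in its spread was not tested.

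**Figure D3:**
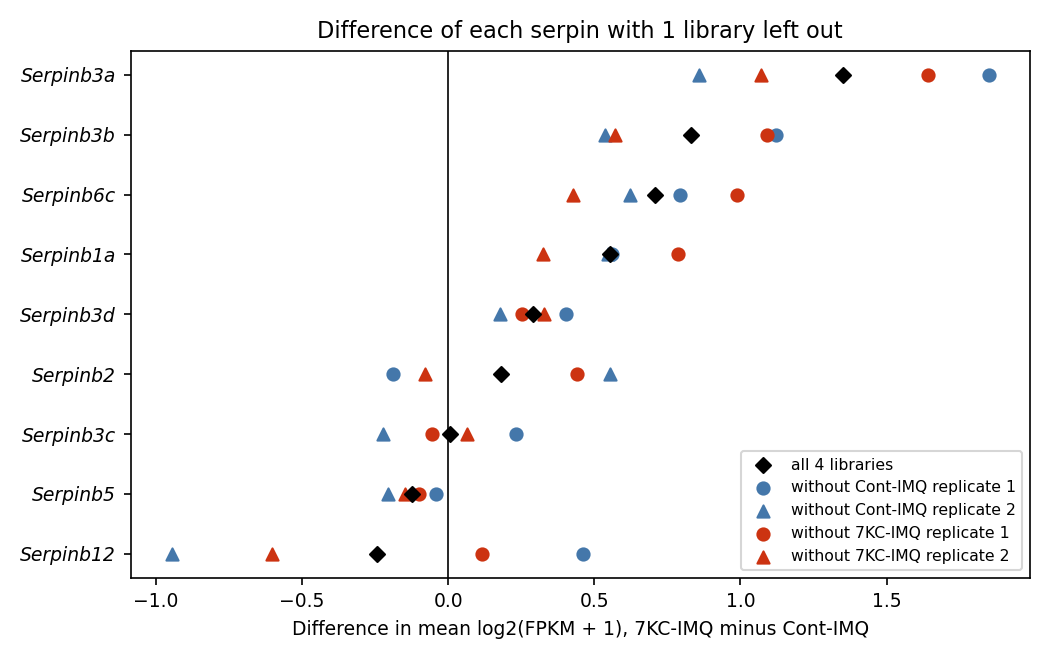
Difference in mean log2(FPKM + 1), 7KC-IMQ minus Cont-IMQ, of each serpin with all 4 libraries (black diamond) and with 1 library left out (colored points). *Serpinb3a*, *Serpinb3b*, *Serpinb6c*, *Serpinb1a* and *Serpinb3d* stay above 0 and *Serpinb5* below 0, whereas *Serpinb2*, *Serpinb3c* and *Serpinb12* lie on both sides.

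The summed basal keratinocyte markers were 8043 and 7202 FPKM under Cont-IMQ and 8031 and 8828 FPKM under 7KC-IMQ, also lowest in Cont-IMQ replicate 2 and highest in 7KC-IMQ replicate 2, and their part in the differences of the members was not tested. Of the 6 basal keratinocyte markers, 2 were higher and 2 lower without overlap, and their median difference was -0.019. *Krt14*, a keratin of the basal layer, was at 4409 and 4132 FPKM under Cont-IMQ and 4807 and 5700 FPKM under 7KC-IMQ, and *Krt15*, another basal keratin, at 216 and 172 against 123 and 96.9 FPKM. Of 7 suprabasal markers, none were higher and 2 (*Ivl* and *Dsg1a*) were lower without overlap, with a median difference of -0.081. The 6 macrophage markers summed to 355 and 399.5 FPKM under Cont-IMQ and 322 and 317 FPKM under 7KC-IMQ, with none higher and 3 lower without overlap.

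The remaining clade B serpins were read beside the 9. Of 20 listed, 18 had a row in the files and 11 passed the filter, a mean of at least 0.1 FPKM. Of these 11, 2 were higher and 5 lower without overlap, and their median difference was -0.15. Before adjustment, 1 was higher and 1 lower at p under 0.05 in limma. *Serpinb11*, which lies between the Serpinb3 genes and *Serpinb7* in the cluster on chromosome 1, had 6.62 and 4.92 FPKM under Cont-IMQ and 7.97 and 11.3 FPKM under 7KC-IMQ (difference 0.65, standard error 0.211, adjusted p = 0.365 in limma). *Serpinb7*, an epidermal inhibitor whose human counterpart is mutated in a palmoplantar keratosis, had 84.3 and 64.9 FPKM against 55.8 and 57.1 FPKM (difference -0.38, standard error 0.139, adjusted p = 0.374 in limma). *Serpinb6e* had 4.39 and 3.83 FPKM against 3.59 and 2.15 FPKM (difference -0.42, standard error 0.211, adjusted p = 0.477 in limma). Genes next to each other in the chromosome 1 cluster thus lay on both sides of 0, and so did *Serpinb6c* and its relatives on chromosome 13. *Serpinb9c*, *Serpinb9d*, *Serpinb9f* and *Serpinb9g* were listed at 0 in every library.

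**Figure D4:**
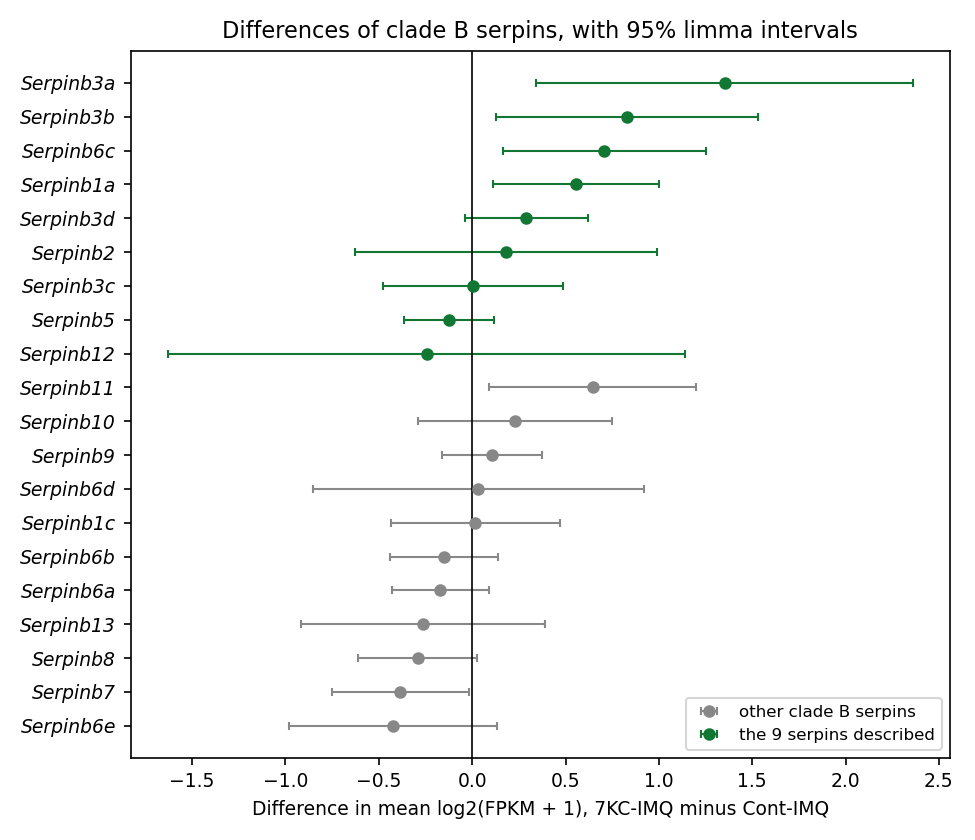
Difference in mean log2(FPKM + 1), 7KC-IMQ minus Cont-IMQ, of the 9 serpins described (green) and of 11 other clade B serpins (gray), with 95% intervals from limma. The intervals of *Serpinb3a*, *Serpinb3b*, *Serpinb6c*, *Serpinb1a* and *Serpinb11* lie above 0 before adjustment for the number of genes, and that of *Serpinb7* lies below 0.

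Among 18 proteases that clade B serpins can inhibit, with the urokinase receptor counted in, 3 were higher and 3 lower without overlap, and the median difference was -0.056. RNA of neither elastase (*Elane*) nor cathepsin G (*Ctsg*), which *Serpinb1a* inhibits, reached 1 FPKM in any library, and the proteins were not measured. Proteinase 3 (*Prtn3*), another of its targets, was at 1.62 and 3.46 FPKM under Cont-IMQ and at 2.40 and 2.00 FPKM under 7KC-IMQ, with overlap. *Ctsl*, the cysteine protease cathepsin L, had 366 and 342 FPKM under Cont-IMQ and 381 and 385 FPKM under 7KC-IMQ, and *Ctss*, cathepsin S, had 162 and 168 against 141 and 141 FPKM. The mast cell proteases *Tpsb2* (difference -0.37) and *Cma1* (difference -0.35) were lower without overlap, and *Plaur* had the largest difference of the list, 0.82 (standard error 0.117, adjusted p = 0.343 in limma). None of the 18 passed the adjusted threshold, and 1 was higher and 3 lower at p under 0.05 in limma before adjustment.

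Among 15 serpins of other clades tested, 3 were higher and 1 lower without overlap, with a median difference of -0.0031. The 3 were *Serpina3m* (9.89 and 13.7 against 25.0 and 17.6 FPKM), *Serpina3f* (3.36 and 3.32 against 5.03 and 6.11 FPKM) and *Serpina3n* (337 and 322 against 527 and 434 FPKM). *Serpina3n* encodes an acute-phase inhibitor that is secreted and was more abundant than any member in each library. The differences of the 3 were 0.80, 0.59 and 0.54 on the log2 scale, and none passed the adjusted threshold in limma, while all 3 were under an unadjusted p-value of 0.05.

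The 5 genes whose centered log2(FPKM + 1) over the 4 libraries lay closest to the mean profile of the 9 members, by Euclidean distance among 13021 genes with a mean of at least 1 FPKM that were neither members nor in any of the lists, were *Gemin2*, *Gsdma*, *Fgfbp3*, *Epn3* and *Trex2*, at distances of 0.0178 to 0.057. *Gsdma* encodes a gasdermin of skin epithelium, and it had 106 and 81.0 FPKM under Cont-IMQ and 109 and 137 FPKM under 7KC-IMQ. *Trex2*, an exonuclease gene of keratinocytes, had 232 and 173 against 242 and 303 FPKM. With only 4 libraries, many genes share any given order, and the distance is a description.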

How the data were processed

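RNA of dorsal skin was sequenced in 4 libraries, 2 per group. The authors deposited FPKM values per gene, which, per the submitters' processing notes, came from TopHat2 2.1.1, Bowtie2 2.2.8, SAMtools 0.1.18 and Cuffdiff 2.2.1. The study's methods name other versions, and the treatment of reads that fit several genes is not given in the sources used here. FPKM hold no counts, so reads were estimated from whole-read steps of low values, assuming a fragment length of 200 bases (74.2% to 76.8% of 503 to 522 low genes lay within 0.1 of a whole read, 20.0% by chance). A floor of 3 reads was set as a mark of low values. A value below it, *Serpinb3c* in Cont-IMQ replicate 2 (2 estimated reads), was kept.

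Genes with a mean of at least 0.1 FPKM (15896, all 9 members among them) were compared on log2(FPKM + 1) with limma 3.58.1 in R 4.3.3, with Benjamini-Hochberg adjustment over all of them and a threshold of 0.05, two-sided. The procedure was tested on simulated data. Samples were grouped by their labels, and p-values measure the spread between these libraries only. Alternatives changed the pseudocount, filter, scaling, variance trend and replicate block, or left out 1 library, in which case the lone library of a group is assumed to vary like the other group. The members and lists were chosen with earlier results of these data known. All members are named, and from each list of other genes the 3 with the largest difference without overlap and a mean of at least 1 FPKM. *Serpinb6a*, *Plau*, *Elane*, *Prtn3*, *Ctsg*, *Ctsl*, *Ctss*, the serpins listed at 0 and single cell type markers were added after their values were seen. Promoters came from RefSeq (GRCm38.p6) and transcripts from GENCODE. Protein sequences were not analysed here.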

Additional observations from a re-analysis of the deposited data

How the results depend on the processing

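With a pseudocount of 0.1, 2 genes of all tested were called instead of 1, and with no filter on low values 71 of 24346, for which the cause was not tested. With each library left out, 1 to 11 genes were called, with 11 without Cont-IMQ replicate 1 and 5 without Cont-IMQ replicate 2. The median difference of the members was 0.581 with a pseudocount of 0.1 and 0.554 over the 7 members with a mean of at least 1 FPKM, by leaving out 2 low members, and 0.324 to 0.536 with each library left out. It was 0.46 without Cont-IMQ replicate 1, 0.536 without Cont-IMQ replicate 2 and 0.442 without 7KC-IMQ replicate 1. The number of members higher without overlap was 4 (of 7) or 5 under the other settings and 5 to 7 with a library left out. Among those other settings, only the scaling could change which members are separated, and the filter which are counted. The share over all genes under these settings is not given here. Separation is easier to reach with a library left out, so those counts cannot be set beside the 23.9% over all genes in the main comparison. Of 97 values of single members under these alternatives, 91 kept their direction and their side of the threshold and 6 reversed, none of which passed it. The filter, variance trend and replicate block leave the difference itself unchanged, so the values under them could not reverse. All 6 reversals came from leaving out a library. *Serpinb2* reversed without Cont-IMQ replicate 1 (-0.189) and without 7KC-IMQ replicate 2 (-0.0784), with a range of -0.189 to 0.552. *Serpinb3c* reversed without Cont-IMQ replicate 2 (-0.222) and without 7KC-IMQ replicate 1 (-0.0561), with a range of -0.222 to 0.231. *Serpinb12* reversed without Cont-IMQ replicate 1 (0.46) and without 7KC-IMQ replicate 1 (0.116), with a range of -0.947 to 0.46. The adjusted p of *Serpinb3a* lay between 0.267 and 0.969 over all alternatives. The labels do not say whether samples with the same replicate number share more than the number (correlation of deviations 0.0651 over 15896 genes). With the replicate number as a block, 1 gene was called, and the call of no member changed. The 5 members higher without overlap and the median difference of 0.29 cannot change with this block, so they do not test it. At 2 to 11 estimated reads per library, depth limits what *Serpinb3c* and *Serpinb3d* can show.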
